A study of Mus musculus with 19 samples.

Results

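Mt1, Mt2 and Mt3 encode metallothioneins, and these 3 of the 20436 genes in the count tables were described in RNA-seq and ribosome profiling libraries of mouse hippocampal slices. They were chosen by symbol, as a family selected on earlier results of the same libraries, with their levels, their ratios of ribosome-protected fragments (RPFs) to RNA and their differences after DHPG in view. Those values are therefore given as a description, no p is given for them, and where a member is said to pass a threshold over all genes nothing is read from it. All slices came from wild-type male mice 28 to 42 days old. They were incubated for 5 min with the group 1 metabotropic glutamate receptor agonist dihydroxyphenylglycine (DHPG) at 100 µM, or with artificial cerebrospinal fluid as vehicle (basal), and every sample of both groups was then exposed to cycloheximide at 100 µg/ml to hold ribosomes in place. Of RNA there were 4 basal and 5 DHPG libraries, and of RPF 5 in each group. No basal RNA library of replicate 5 was analysed here, so its DHPG library stood unpaired. Slices of several mice were pooled for each replicate, each lysate gave both an RNA and an RPF library, and CA3 had not been cut away from the slices of these batches, so the samples hold several hippocampal fields and all their cell types.

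Metallothioneins are small cytosolic proteins in which cysteines bind zinc and copper, so that they buffer free metal and can take up oxidants. Transcription of Mt1 and Mt2 is switched on by zinc through the metal-sensing factor MTF1, which binds metal response elements in their promoters, and by glucocorticoids and oxidative stress, and in brain both are most abundant in astrocytes. Mt3 is the brain-enriched member, is found in neurons and glia and responds little to metals, and Mt4 belongs to stratified squamous epithelium.

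All 4 genes lie on the plus strand of chromosome 8 within 43131 bases (GRCm38, the same build as mm10) and have 3 exons each. Mt1 runs from 94179082 to 94180327 (ENSMUSG00000031765.8), Mt2 from 94172664 to 94173568 (ENSMUSG00000031762.7), Mt3 from 94152607 to 94154146 (ENSMUSG00000031760.9) and Mt4 from 94137197 to 94139031 (ENSMUSG00000031757.7). Mt2 and Mt1 are 5513 bases apart, and 18517 bases separate Mt3 from Mt2. Mt2 overlaps the annotated gene Gm45774, which was not analysed here. The coding sequences are shown because their length and likeness bear on how fragments were counted. They are read from GENCODE transcripts, 5′ to 3′, with capitals for the stretch in which RPFs were counted and lower case for the 30 bases left out at each end.
Mt1: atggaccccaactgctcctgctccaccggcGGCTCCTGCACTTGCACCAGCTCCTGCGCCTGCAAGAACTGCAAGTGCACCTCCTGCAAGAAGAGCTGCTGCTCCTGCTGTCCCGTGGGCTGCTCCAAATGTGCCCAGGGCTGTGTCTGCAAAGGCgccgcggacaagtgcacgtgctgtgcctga
Mt2: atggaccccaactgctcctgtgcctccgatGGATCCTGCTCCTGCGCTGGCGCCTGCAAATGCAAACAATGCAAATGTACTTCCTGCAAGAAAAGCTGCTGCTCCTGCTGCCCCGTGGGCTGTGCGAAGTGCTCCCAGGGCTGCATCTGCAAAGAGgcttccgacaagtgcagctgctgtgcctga
Mt3: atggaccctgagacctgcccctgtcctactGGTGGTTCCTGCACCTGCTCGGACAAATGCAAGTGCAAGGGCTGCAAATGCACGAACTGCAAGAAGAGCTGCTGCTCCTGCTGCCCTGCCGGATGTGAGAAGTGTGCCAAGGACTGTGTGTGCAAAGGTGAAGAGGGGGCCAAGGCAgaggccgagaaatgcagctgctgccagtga
The counted stretch is 126 bases in Mt1 and in Mt2, which is 67.7% of their 186 coding bases, and 147 bases in Mt3, which is 71.0% of 207. Cysteine codons make up 20 of 61 codons in Mt1 and in Mt2 and 20 of 68 in Mt3. Coding sequences of Mt1 and Mt2 are identical at 148 of 186 aligned bases (79.6%), Mt1 and Mt3 at 66.2% of aligned positions and Mt2 and Mt3 at 67.6%. Of the 28-base windows in the counted stretch, 0 of 99 of Mt1 and 0 of 120 of Mt3 occur in a transcript of another gene, and 1 of 99 of Mt2 also occurs in a Pip5k1a transcript. At footprint length the members were thus nearly free of shared sequence among annotated transcripts, and copies elsewhere in the genome were not examined here.

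Promoter windows of Mt1, Mt2 and Mt3 (RefSeq, GRCm38.p6, 250 bases before to 50 bases after the annotated start, plus strand) are shown because MTF1 acts through them. Capitals mark cores of metal response elements, searched as TGCACNC or TGCGCNC on both strands.
Mt1, chr8:94178839-94179138: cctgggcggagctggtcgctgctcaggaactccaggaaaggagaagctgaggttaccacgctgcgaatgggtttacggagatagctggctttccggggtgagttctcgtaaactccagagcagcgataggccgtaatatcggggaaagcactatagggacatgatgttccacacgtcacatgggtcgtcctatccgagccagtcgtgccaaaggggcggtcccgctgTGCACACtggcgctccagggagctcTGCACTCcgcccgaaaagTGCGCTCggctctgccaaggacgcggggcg
Mt2, chr8:94172368-94172667: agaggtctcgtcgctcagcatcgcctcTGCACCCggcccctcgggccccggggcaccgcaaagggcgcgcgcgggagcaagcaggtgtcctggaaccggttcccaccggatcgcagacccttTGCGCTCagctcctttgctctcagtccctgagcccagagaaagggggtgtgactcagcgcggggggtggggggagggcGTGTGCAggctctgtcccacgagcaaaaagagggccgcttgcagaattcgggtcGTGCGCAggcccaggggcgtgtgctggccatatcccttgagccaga
Mt3, chr8:94152357-94152656: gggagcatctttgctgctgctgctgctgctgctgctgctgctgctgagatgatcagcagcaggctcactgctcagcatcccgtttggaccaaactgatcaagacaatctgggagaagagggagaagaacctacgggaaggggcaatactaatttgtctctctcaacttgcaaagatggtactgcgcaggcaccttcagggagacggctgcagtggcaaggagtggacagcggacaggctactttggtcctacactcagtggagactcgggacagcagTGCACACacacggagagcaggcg
The window of Mt1 holds 3 cores, that of Mt2 holds 4 and that of Mt3 holds 1. Among 32851 RefSeq promoter windows of the same length, 1.97% hold at least 3, 0.52% at least 4 and 25.7% at least 1. An antioxidant response element core (TGACNNNGC) is present once in the window of Mt2, as in 12.4% of all windows. Searched on both strands, GGGCGG occurs 3 times in that of Mt1. Its match at position 9 after the start is on the minus strand and reads CCGCCC in the printed window. A GC box of this kind is in 35.7% of windows. These are matches of letters and not measured binding sites. RefSeq and GENCODE place the starts of Mt1 and Mt2 differently. The Mt2 window ends at 94172667, whereas the GENCODE transcript of Mt2 starts at 94172664. The counts of cores therefore hold for the RefSeq starts.

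RNA libraries held 4870813 to 7793244 counts and RPF libraries 5692064 to 22092434. Mt2 had the fewest RNA counts of the members, 169 to 367 per library, which gives a counting error of 5.22 to 7.69% of the value. RNA counts of Mt1 were 439 to 868 and of Mt3 293 to 528. In RPF each member had at least 2117 counts in every library and a counting error of at most 2.17%. Mt4 served as the family member that hippocampus should lack, with 0 or 1 count in each of the 19 libraries, which is too few for a fold change.

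Mt1 was the most abundant member in RNA. Its basal RNA level was 71.7, 107, 130 and 101 CPM (the count scaled by edgeR for library size) in replicates 1 to 4, and its DHPG level was 81.4, 108, 140, 109 and 146 CPM in replicates 1 to 5. The groups overlapped, and replicate 1 was lowest in both. Mt2, which is co-regulated with Mt1 by metals, had 33.0, 34.8, 56.7 and 25.1 CPM of RNA in basal slices and 45.3, 42.9, 60.6, 34.9 and 37.3 after DHPG. Replicate 3 was highest for Mt2 in both groups and the ranges overlapped. For Mt3, RNA was at 65.0, 60.4, 69.8 and 74.1 CPM in basal slices and 65.6, 88.2, 66.5, 74.2 and 60.4 after DHPG. Mt3 varied least among the members in basal RNA, and 1 DHPG library, that of replicate 2, lay above all others.

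In RPF, Mt1 was at 425, 383, 551, 592 and 543 CPM in basal replicates 1 to 5 and at 479, 466, 553, 685 and 694 CPM after DHPG. Replicates 1 and 2 were lowest in both groups, and although the groups overlapped each DHPG library was above its own basal partner. Mt2 had the same order of replicates as Mt1 within each group, with 329, 294, 383, 397 and 377 CPM in basal slices and 383, 348, 413, 436 and 448 after DHPG. Again each DHPG library was above its partner. Mt3 was nearly level, with 400, 393, 395, 389 and 415 CPM of RPF in basal slices and 440, 388, 412, 393 and 438 after DHPG. Mt3 was higher in 4 of 5 pairs.

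**Figure D1:**
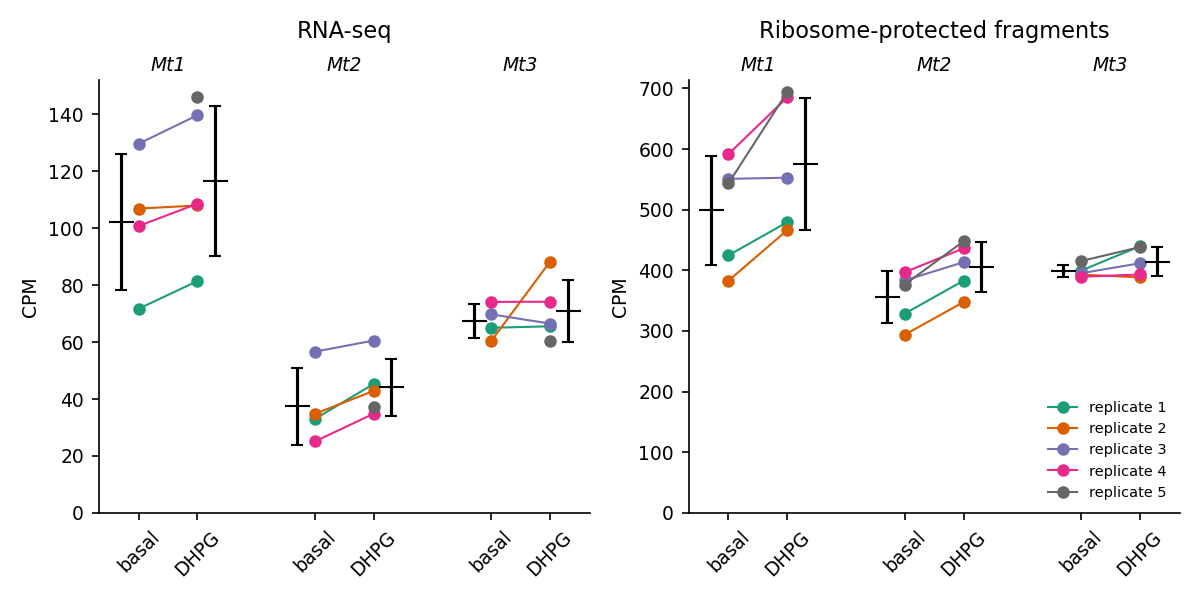
CPM of Mt1, Mt2 and Mt3 in RNA-seq (left) and RPF (right) libraries. Points are libraries coloured by replicate, lines join the basal and DHPG libraries of a replicate, and black marks are the mean and SD of each group. For Mt1 and Mt2 in RPF every line climbs and replicates 1 and 2 are lowest in both groups, and Mt3 stays between 388 and 440 CPM.

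The spread between replicates differed across the family. Over basal RPF libraries the SD of log2 CPM was 0.27 for Mt1, 0.18 for Mt2 and 0.04 for Mt3, beside a median of 0.15 over all genes tested. Only 1.24% of genes had a smaller SD than Mt3, whereas 84.9% had a smaller SD than Mt1. The highest basal RPF library of Mt1 was 1.55 times the lowest, that of Mt2 1.35 times and that of Mt3 1.07 times. In basal RNA the SD was 0.35 for Mt1, 0.48 for Mt2 and 0.13 for Mt3, beside a median of 0.26. Mt2 thus varied most in RNA and Mt1 varied most in RPF. The highest basal RNA library of Mt2 was 2.24 times the lowest, beside a counting error of 5.22 to 7.69% of the value.

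Per length, Mt1 was the highest member in every one of the 19 libraries. Basal RPF levels were 3958 ± 712 CPM per kilobase of counted coding sequence for Mt1 (SD, n = 5), 2824 ± 343 for Mt2 and 2711 ± 68.6 for Mt3. Mt2 and Mt3 did not differ beyond their spread, with Mt2 above Mt3 in 3 of 5 basal libraries and in 5 of 5 DHPG libraries. Among 12716 genes with a length, Mt1 ranked 11th, Mt2 20th and Mt3 23rd in RPF per kilobase. In RNA per kilobase of transcript the order was Mt1 with 186 ± 43.4 (SD, n = 4), Mt3 with 126 ± 11.1 and Mt2 with 73.2 ± 26.4, and it held in all 9 libraries. The ranks in RNA were lower, at 295 for Mt1, 484 for Mt3 and 896 for Mt2 of 12449 genes.

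The balance between Mt1 and Mt2 was not the same in the 2 kinds of library. Per length, Mt1 was 2.69 ± 0.79 times Mt2 in basal RNA (SD, n = 4, from 2.02 to 3.73) and 1.39 ± 0.09 times Mt2 in basal RPF (SD, n = 5, from 1.29 to 1.49). After DHPG the ratios were 2.54 ± 0.76 and 1.41 ± 0.14, both with n = 5. Of the summed level of the 3 members per length, Mt2 held 18.8% ± 4.2 in basal RNA and 29.7% ± 0.47 in basal RPF. Mt1 held 48.0% ± 4.6 and 41.4% ± 3.0 in the same groups, and Mt3 33.2% ± 5.4 and 28.8% ± 3.3.

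Accordingly, the basal RPF to RNA ratio per length, a measure of ribosome density, was highest for Mt2. In replicates 1 to 4 it was 40.0, 33.9, 27.3 and 63.3 for Mt2. It was 25.7, 15.6, 18.5 and 25.5 for Mt1 and 22.3, 23.6, 20.6 and 19.1 for Mt3. On the log2 scale the means were 5.29 ± 0.51 for Mt2, 4.38 ± 0.36 for Mt1 and 4.41 ± 0.13 for Mt3 (SD, n = 4). Mt1 and Mt3 did not differ beyond their spread, and the lowest value of Mt2, 27.3, was above the highest of Mt1, 25.7. The median over 12222 genes was 0.86 and the 95th percentile 3.65, so all 3 members stood above that percentile, at ranks 81, 285 and 271 for Mt2, Mt1 and Mt3.

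Most of that height was shared with other genes of short coding sequence. The median log2 ratio was 3.96 for 190 genes with at most 300 coding bases, 2.45 for 301 to 600 bases, 1.43 for 601 to 1200, 0.71 for 1201 to 2400 and -0.11 for longer ones. Among the 190 short genes Mt2 ranked 37th, Mt3 71st and Mt1 73rd, and the ratio of Mt2 was 2.52 times the median of that class, against 1.34 times for Mt1 and 1.37 times for Mt3. Short genes lose the largest part of their positions to the removal of 30 bases at each end, and the RNA libraries held size-selected fragments, so the absolute height of the ratio depends on how both were counted. Without any length scaling the log2 ratios were 3.27 for Mt2, 2.55 for Mt3 and 2.26 for Mt1, beside a median of -0.18 over all genes and 1.47 over the short ones. The part of counting, fragment selection and ribosome density in these ratios was not tested.

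**Figure D2:**
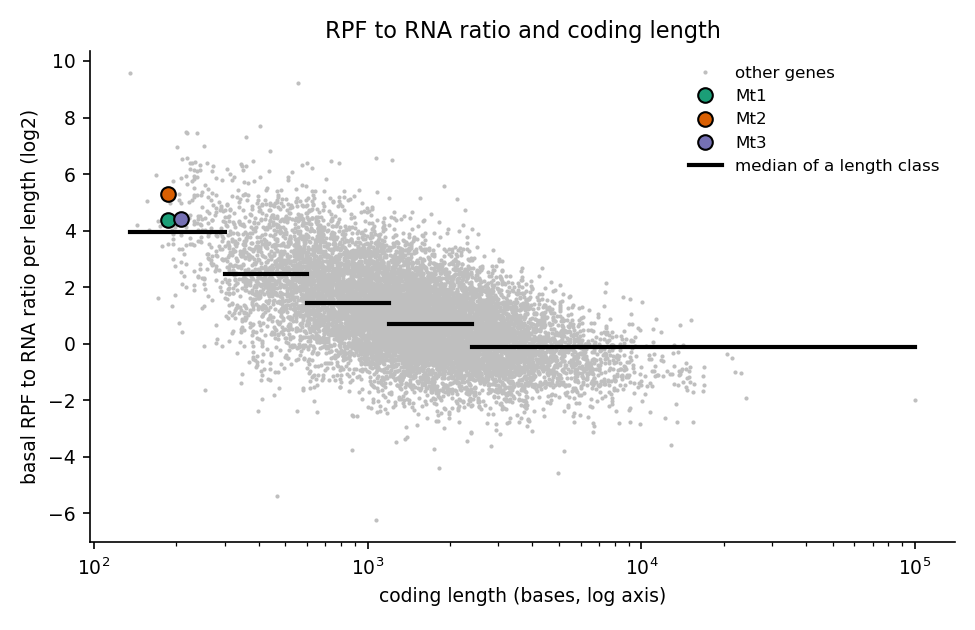
Mean basal RPF to RNA ratio per length (log2, 4 replicates) of 12222 genes against coding length in bases on a log axis. Grey points are other genes, coloured points are Mt1, Mt2 and Mt3, and black bars are medians of the length classes. The ratio falls with length, and the members lie 0.42 (Mt1), 1.33 (Mt2) and 0.46 (Mt3) above the bar of the shortest class.

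To determine how the members differed after DHPG, each DHPG library was set against the basal library of its replicate. The RPF difference in log2 CPM for Mt1 was 0.17, 0.28, 0.00, 0.21 and 0.35 in pairs 1 to 5. For Mt2 it was 0.22, 0.24, 0.11, 0.14 and 0.25, and for Mt3 0.14, -0.02, 0.06, 0.01 and 0.08. Mt1 and Mt2 were higher in 5 of 5 pairs, as were 5.16% of 13208 genes tested, and pair 3 gave the smallest difference of both. Fitted with the replicate as a block, the RPF log2 fold change was 0.20 for Mt1 (standard error 0.03, 15.2% higher), 0.19 for Mt2 (0.03, 14.1% higher) and 0.05 for Mt3 (0.03, 3.66% higher). All genes tested had a median of 0.00 and a median standard error of 0.06.

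In that fit 29 genes, or 0.220% of those tested, passed an adjusted p of 0.05 (edgeR's quasi-likelihood test), 24 of them higher after DHPG (0.182%). Mt1 and Mt2 were 2 of the 24 and Mt3 was not. Because this contrast was in view when the family was picked, nothing is read from that count. The fold changes of Mt1 and Mt2 ranked 11th and 14th of the 24, and by basal RPF level they ranked 6th and 9th of the 29. Fold changes at least as large were fitted for 433 and 528 of the 13208 genes. The difference of 1.15 times for Mt1 was also smaller than the 1.55 times between its basal replicates, so it rests on the pairing of libraries. Without the replicate block 0 genes passed, although the fitted values were nearly unchanged at 0.21 for Mt1 and 0.19 for Mt2. Leaving out replicate 2 ended the call of Mt1, at a fitted value of 0.18, and not that of Mt2.

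In RNA the pair differences were 0.18, 0.01, 0.11 and 0.11 for Mt1 and 0.45, 0.30, 0.10 and 0.47 for Mt2. Both were higher in 4 of 4 pairs, as were 8.67% of 12935 genes tested. Mt3 gave 0.01, 0.54, -0.07 and 0.00, so its RNA difference came from pair 2. The fitted RNA log2 fold change was 0.10 for Mt1 (standard error 0.07), 0.32 for Mt2 (0.09, 24.8% higher) and 0.11 for Mt3 (0.09), beside a median of 0.01. In RNA 1 gene passed an adjusted p of 0.01 (0.00773%), and it was none of the members. After removal of batch by ComBat and a DESeq2 test, the kind of processing the study used, 100 RNAs passed, with Mt2 among them at a log2 fold change of 0.32. That test had no replicate block, and the 1 gene that passed in edgeR was not among the 100. DESeq2 with the replicate block called 0 RNAs. Without replicate 2 the fitted RNA value of Mt3 was -0.02.

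**Figure D3:**
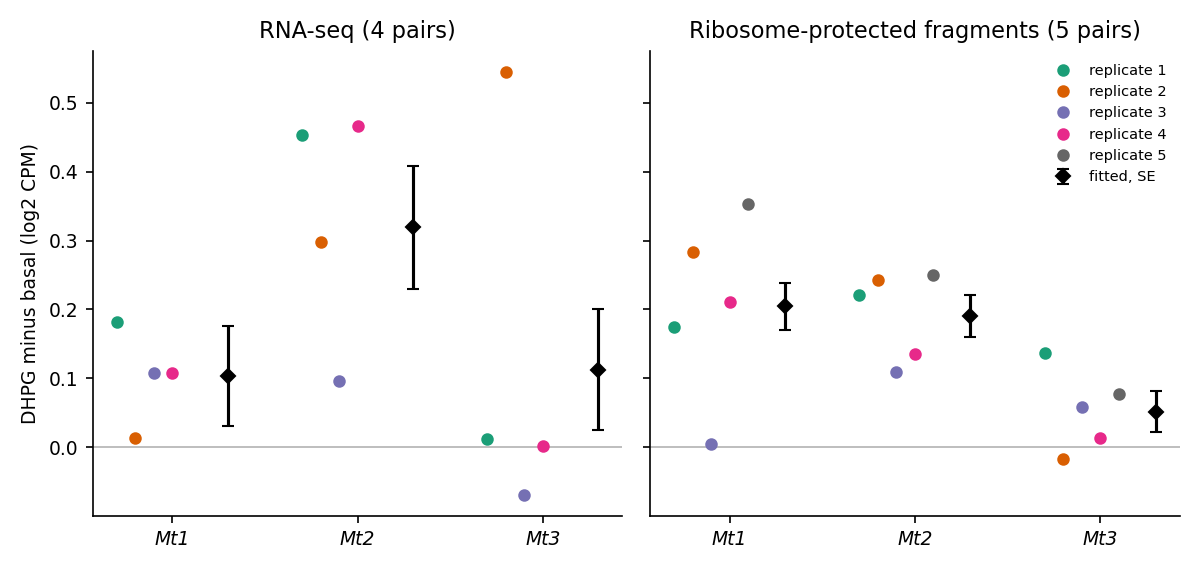
Difference of log2 CPM, DHPG minus basal, for each replicate pair (coloured points) and the fitted log2 fold change with its standard error (black diamonds) in RNA (4 pairs) and RPF (5 pairs). RPF points of Mt1 and Mt2 lie from 0.00 to 0.35 and the RNA point of Mt3 in pair 2, at 0.54, stands apart from the other 3.

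Whether RPF and RNA moved by different amounts was asked as an interaction over all 19 libraries. Replicates were blocked within each kind of library, so the lysate shared by an RNA and an RPF library was not modelled. The DHPG RNA library of replicate 5 had no basal partner in its block. The RPF less the RNA log2 fold change was 0.10 for Mt1 (standard error 0.08), -0.12 for Mt2 (0.09) and -0.06 for Mt3 (0.09). For Mt2 the larger fitted value was thus the one in RNA and for Mt1 the one in RPF, with standard errors close to the size of the values. By this test 0 of 12691 genes passed (0%), as with limma on the differences, and 849 had an unadjusted p under 0.05. The log2 ratio was higher after DHPG in 2 of 4 pairs for Mt1, 1 of 4 for Mt2 and 3 of 4 for Mt3.

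Other genes of metal handling and of the signals that act on metallothioneins were counted in lists. They comprised 76 genes, of which 66 were tested in RPF and 67 in RNA, and none passed the threshold in either (edgeR). At an unadjusted p under 0.05 there were 11 in RPF (16.7%) and 4 in RNA (5.97%), beside 10.8% and 8.02% of all genes tested. DESeq2 with the block called 0 in both, and ComBat followed by DESeq2 called 1 in RPF, the zinc importer Slc39a12, and 0 in RNA.

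Among the zinc sensor and exporters, 5 of 9 genes tested were higher in RPF, with a median log2 fold change of 0.01, beside 0.00 over all genes. Mtf1, the metal sensor, had 24.4 ± 1.64 CPM of RPF in basal slices and 24.1 ± 2.47 after DHPG (SD, n = 5 each). The fitted difference was -0.02 on the log2 scale, with a standard error of 0.06 and an adjusted p of 0.94. Slc30a1, the zinc exporter of the plasma membrane and itself an MTF1 target, had 44.2 ± 2.41 and 48.8 ± 2.03 CPM. It had the largest value of its list, 0.13 (0.05, adjusted p = 0.27). It was higher in 5 of 5 pairs, as were Slc30a6 of the same list and 5.16% of all genes tested. Slc30a3, which loads zinc into synaptic vesicles, was at 0.03 (0.04, adjusted p = 0.85), and Slc30a9 was lowest at -0.10 (0.04, adjusted p = 0.42). In RNA the list had a median of 0.00, from -0.20 for Slc30a6 to 0.19 for Mtf1 (adjusted p = 0.63 and 0.69). Slc30a1 was at 0.10 in RNA (adjusted p = 0.81) and higher in 2 of 4 pairs.

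Zinc importers of the Slc39a family had a median of 0.04 in RPF, with 9 of 11 higher, and -0.01 in RNA, with 4 of 11 higher. Slc39a13 and Slc39a1 were highest in RPF at 0.10 and 0.09 (adjusted p = 0.72 and 0.52), and Slc39a8, which had only 1.81 ± 0.36 CPM (SD, n = 5), was lowest at -0.05. For copper handling the RPF median was 0.10, with 7 of 10 higher, and the RNA median 0.03. Cox17, a copper chaperone of mitochondria, and the copper pump Atp7a both had 0.14 in RPF (adjusted p = 0.25 and 0.49), while superoxide dismutase Sod1 had -0.02. In RNA the lowest values of the 6 lists were those of Sco1, at -0.51 (adjusted p = 0.54), and Commd1, at -0.25 (adjusted p = 0.56). Sco1 helps to load copper into cytochrome c oxidase. Both were lower in 4 of 4 pairs, as was Hmox2 of the iron list, and the share of all genes lower in every pair was not counted. In iron handling 3 of 8 were higher in RPF (median -0.04) and 2 of 8 in RNA (median -0.09). The transferrin receptor Tfrc was at 0.07 and ferritin light chain Ftl1 at -0.10 (adjusted p = 0.44 and 0.45).

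Antioxidant response genes had an RPF median of 0.02, with 7 of 13 higher. Their activator Nfe2l2 was lowest at -0.12 (adjusted p = 0.53), and Srxn1, which repairs oxidized peroxiredoxins, highest at 0.11 (adjusted p = 0.55). In RNA Nfe2l2 was highest of the list, at 0.37 (adjusted p = 0.58), and the median was -0.01. Glucocorticoid response genes had a median of 0.04 in RPF, with 10 of 15 higher, and 0.07 in RNA, with 14 of 16 higher. Tsc22d3 was highest in RPF at 0.10 (adjusted p = 0.44) and at -0.12 in RNA (adjusted p = 0.79). Fkbp5, a classical target of the receptor, was at -0.08 in RPF (adjusted p = 0.55). It was lower in 5 of 5 pairs, as was Arrdc2 of the same list. Sgk1 was at 0.06 (adjusted p = 0.62).

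**Figure D4:**
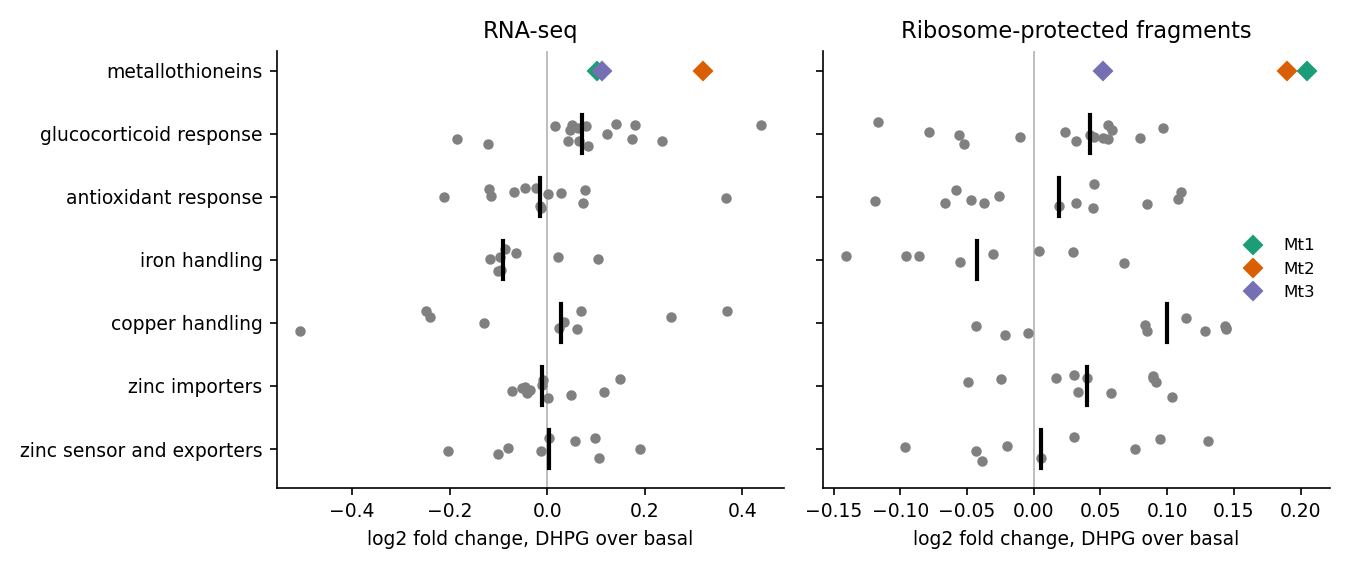
Fitted log2 fold changes, DHPG over basal, in RNA (left) and RPF (right) on separate axes. Grey points are genes of each list, black bars the list medians and diamonds Mt1, Mt2 and Mt3. In RPF Mt1 (0.20) and Mt2 (0.19) lie beyond the highest list gene (0.14), whereas in RNA 3 list genes lie above Mt2 (0.32).

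Markers of cell types and regions were set beside the members, because in bulk tissue fewer cells of a type and less RNA per cell cannot be told apart. All 12 astrocyte markers had fitted RPF values above 0, with a median log2 fold change of 0.08, and 0 passed the threshold. Their summed RPF level was 6361 to 7575 CPM in basal libraries and 6539 to 7958 after DHPG, and none was at 0. By pair the astrocyte median was 0.06, 0.04, 0.07, 0.09 and 0.11, where Mt1 had 0.17, 0.28, 0.00, 0.21 and 0.35. Aqp4, the astrocyte water channel, had 0.09 and Gfap 0.01, and Fgfr3 was highest of the 12 at 0.13. An unadjusted p under 0.05 (edgeR) was found for 6 of the 12, beside 10.8% of all genes tested. It was also found for 5 of 8 oligodendrocyte, 3 of 8 microglial and 2 of 8 neuronal markers. Microglial markers were above 0 in 8 of 8 (median 0.07, 0 passed), with summed RPF levels of 557 to 825 CPM in basal and 652 to 885 in DHPG libraries.

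The thalamus list, which was written knowing that some of its genes were among the RPF calls, was above 0 in 8 of 8, and 6 passed. Its summed RPF level was 141 to 176 CPM in basal libraries and 144 to 233 after DHPG, and none of its genes was at 0 in a whole group. Its median by pair was 0.31, 0.69, 0.86, 0.49 and -0.24. It was highest in pair 3, where Mt1 had 0.00 and Mt2 0.11, and below 0 in pair 5, where Mt1 and Mt2 had their largest values, 0.35 and 0.25. Oligodendrocyte markers were above 0 in 7 of 8, and 1, the myelin gene Mag, passed. They had a median of 0.11 and summed to 4458 to 9232 CPM in basal and 5177 to 10470 in DHPG libraries. By pair their median was 0.17, 0.22, 0.02, 0.22 and -0.10, where Mt1 had 0.17, 0.28, 0.00, 0.21 and 0.35. Mt2 had 0.22, 0.24, 0.11, 0.14 and 0.25 in the same pairs.

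Neuronal markers had a median of 0.00, with 3 of 8 above 0. Their sums were 9520 to 10360 CPM in basal and 9670 to 10350 in DHPG libraries. Markers of hippocampal fields had a median of 0.01, summed to 783 to 831 CPM in basal and 797 to 836 in DHPG libraries, and none was at 0 in a group. Endothelial markers had fitted values below 0 in 8 of 8 (median -0.13, 0 passed), summing to 69.2 to 102 and 69.5 to 98.7 CPM. By pair their median was 0.16, -0.71, -0.17, 0.07 and 0.17, so the pairs differed in direction and pair 2 was lowest. Choroid plexus markers had a summed RPF level of at most 18.2 CPM in basal and 21.3 in DHPG libraries, and its defining gene Ttr had 0.34 ± 0.11 CPM in basal RPF (SD, n = 5). Markers of meningeal fibroblasts summed to 275 to 397 and 287 to 368 CPM. Immediate early genes had an RPF median of 0.07, with 9 of 10 above 0 and 0 passing, and an RNA median of 0.22. The part of cell composition in the values of Mt1 and Mt2 was not tested.

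**Figure D5:**
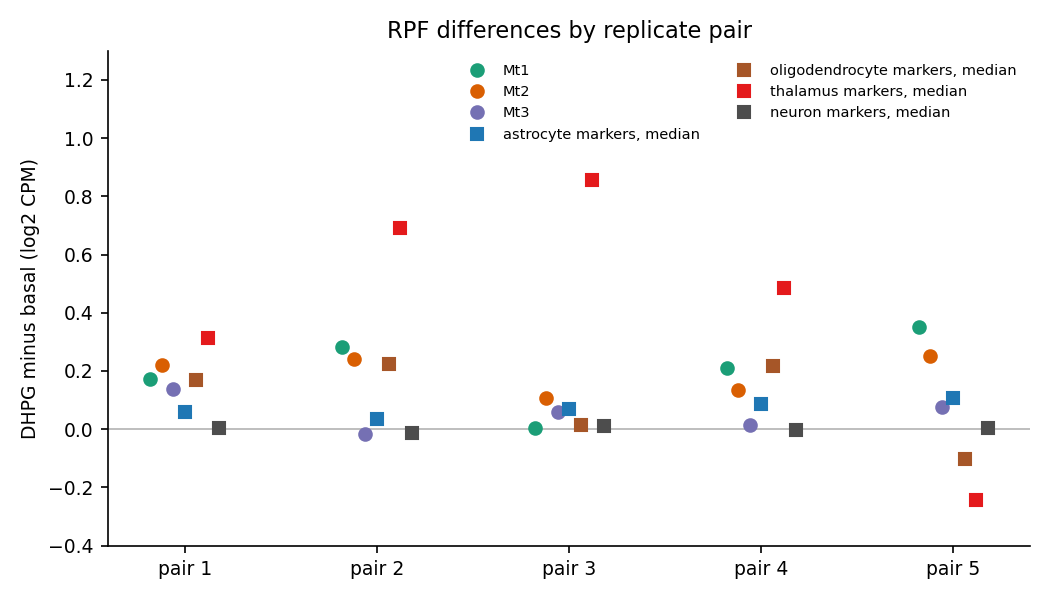
RPF differences, DHPG minus basal in log2 CPM, by replicate pair for Mt1, Mt2 and Mt3 (circles) and the medians of 4 marker lists (squares). Thalamus markers run from -0.24 in pair 5 to 0.86 in pair 3, where Mt1 is at 0.00, while astrocyte markers stay between 0.04 and 0.11. Oligodendrocyte markers are at 0.22 in pairs 2 and 4, at 0.02 in pair 3 and at -0.10 in pair 5.

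Last, genes with the pattern most like each member were named by the smallest root mean square difference of centred log2 CPM. Over the 10 RPF libraries the nearest to Mt1 were Fhdc1 (0.09), Mt2 (0.11), Plekhf1 (0.11), Cdc42ep4 (0.12) and Nudt22 (0.12), against a median of 0.30 over 13207 genes. Mt2 was therefore second to Mt1, whereas Mt1 was 52nd to Mt2, whose nearest were Tril (0.06), Mast1, Rgcc, Man2c1 and Celf3 (all 0.08). For Mt3 they were Map6 (0.03), Psmd7, Ppp1ca, Adprh and Ndufb3 (all 0.04), with Mt1 10915th. The measure also depends on how much a member varies. Over these RPF libraries the SD was 0.28 for Mt1, 0.19 for Mt2 and 0.07 for Mt3. Over the 9 RNA libraries Mt1 and Mt2 were not close, with a difference of 0.37 and Mt2 at rank 5725 for Mt1. The nearest to Mt1 in RNA were Slc35e4 (0.09), Bok (0.10), Klf15 (0.11), Cebpb (0.11) and Rnf166 (0.12). For Mt2 they were Caskin2, Kcng1, Celsr1 (all 0.12), Entpd2 and Zfp687 (both 0.13), and for Mt3 Ripk2 (0.06), Fdxacb1, Ndufb10, Eif4e2 (all 0.08) and Ubl3 (0.09).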

How the data were processed

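The authors deposited 2 tables, RNA and RPF, of expected counts that RSEM had estimated for each gene and that hold whole numbers. Per the paper's methods, adapters and rRNA and tRNA reads were removed, uniquely mapped reads (TopHat2, mm10) were kept, molecular duplicates were dropped, and RPFs were counted on coding sequences without 30 bases at each end. The 12 columns of no sample here were not used. Genes kept by filterByExpr were normalized by TMM and tested with edgeR 4.0.16 (quasi-likelihood, replicate block, Benjamini-Hochberg over all genes) in R 4.3.3, and every adjusted p is from edgeR unless DESeq2 is named. Standard errors were derived from the fold change and its F statistic. RNA and RPF libraries of a replicate share a lysate, and the study treated replicate numbers as batches. Deviations of same-numbered basal and DHPG libraries from their group means correlated at 0.31 to 0.74 in RNA and 0.26 to 0.52 in RPF across genes. The basal RNA library of replicate 2 correlated less with its own number (0.31) than with another (0.47). Log2 CPM used a prior count of 2. Lengths came from GENCODE transcripts linked to RefSeq (19503 of 20436 genes, 95.4%). P-values of fits with the replicate block set the DHPG to basal difference against its variation between replicate pairs of slice pools. In edgeR that variation is drawn for each gene toward a trend over all genes. The p-values and standard errors are therefore not a gene's own spread over its pairs, which the pair differences show. The members, gene lists and marker lists were chosen with earlier results of these data known. Named genes were drawn from the members, the 2 highest and 2 lowest of each pathway list, Mtf1, Slc30a1, Slc30a3, Fkbp5, Sgk1, genes past a threshold, and the 5 genes nearest to each member. Slc39a12, Sod1 and marker genes named singly were chosen after their values were seen. Alternatives were DESeq2 1.42.0, ComBat (sva 3.50.0), size factors, other filters and thresholds, no replicate block, length correction, limma 3.58.1 for the ratio, other lengths, and each replicate left out. The steps were tested on simulated data.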

Additional observations from a re-analysis of the deposited data

Results flagged for a closer look

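The RNA of Mt3 in replicate pair 2 stood apart from the other pairs. Its difference in log2 CPM, DHPG minus basal, was 0.54, against 0.01, -0.07 and 0.00 in pairs 1, 3 and 4. The gap to the nearest pair, divided by the range of the 4 values, was 0.87, above Dixon's 95% critical value of 0.829. Of 24 groups of member values examined this was the only 1 to do so, and chance alone marks about 1 group in 20. In RPF the same pair gave -0.02 for Mt3. Over all genes, the basal RNA library of replicate 2 correlated less with its own number (0.31) than with another (0.47). The part of this pairing in the value of Mt3 was not tested.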

How the results depend on the processing

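Fitted RPF values of Mt1 and Mt2 kept their direction under all alternatives, from 0.17 to 0.26 for Mt1 and from 0.17 to 0.21 for Mt2, and the threshold was missed without the replicate block (both) and without replicate 2 (Mt1). The family was picked with this contrast in view, so nothing is read from where the threshold was passed. Without the replicate block 0 RNAs, 0 RPFs and 0 ratios were called, and it changed no other call of a member. The count of RPFs called was 29, and it was 427 with ComBat and DESeq2, 96 with no filter on low counts, 8 at an adjusted p of 0.01 and 3 (without replicate 2) to 71 (without replicate 3) with a replicate left out, with 10 and 50 without replicates 1 and 5. The count of RNAs, 1, was 100 with ComBat and DESeq2, 7 with no filter, 0 with DESeq2 and the block or at least 10 counts in every library, and 0 (without replicate 3) to 22 (without replicate 2) with a replicate left out. For the RPF to RNA ratio it was 0, 3 with no filter, and 0 to 8 with a replicate left out (8 without replicate 2). Mt2 RNA was called only with ComBat and DESeq2. Without replicate 2, Mt3 reversed to -0.018 in RNA and to 0.085 in the interaction, with ranges over the replicates left out of -0.018 to 0.17 and of -0.12 to 0.085. The log2 ratio per length became 3.82 (Mt1), 4.73 (Mt2) and 3.92 (Mt3) with the whole coding length, 2.26, 3.27 and 2.55 without length scaling, and 4.77 (Mt1) and 4.74 (Mt3) with a footprint also taken off. The cause of these shifts was not tested, except that the length settings change the divisor by construction. Mt2 kept the highest ratio in all of them. No gene of the 6 lists passed in RNA or RPF under the alternatives run for them in edgeR. Counting error was larger in RNA than in RPF for each member. The spread of Mt1 and Mt2 between basal RNA replicates was larger than that error.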
